A study of Mus musculus with 12 samples.

Results

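The 7 transcripts described here are grouped under mitochondrial beta-oxidation. They encode the acyl-CoA dehydrogenases Acadvl, Acadl, Acadm and Acads, the trifunctional-protein subunit Hadhb, the 3-hydroxyacyl-CoA dehydrogenase Hadh and the enoyl-CoA hydratase-like protein Echdc3. Each was measured by the single probe assigned to it by its feature number on the array (5761, 7461, 17039, 16397, 16672, 10113 and 11497, in the order named), and these are 7 of the 20280 probes kept. The liver samples came from male FVB mice of 6 weeks that were fed or had been fasted for 12, 24 or 72 hours, with chow removed, and the fasted mice were warmed with a lamp from 24 hours on. Every group had 3 arrays, each with Cy3-labelled RNA pooled from 2 livers, and all arrays shared a Cy5-labelled reference made from 6 fed livers, so that values are log2 ratios of sample over reference. No dyes were exchanged, so a probe can stand above or below 0 in fed liver through its dye behaviour. That part cancels in a difference between groups only where it is the same on all arrays. For some of the 7 the reference signal differed between arrays, as given below. In whole liver RNA, fewer cells of a type and less RNA per cell cannot be told apart.

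Beta-oxidation shortens fatty acyl-CoA in a spiral of dehydrogenation, hydration, a second dehydrogenation and thiolytic cleavage, and each turn releases acetyl-CoA. The acyl-CoA dehydrogenases open every turn and differ in the chain length they prefer: Acadvl takes very long, Acadl long, Acadm medium and Acads short chains. Hadhb carries the thiolase activity of the membrane-bound trifunctional protein, which serves long chains, and Hadh carries out the second dehydrogenation on medium and short chains in the matrix. Echdc3 is a mitochondrial protein related in sequence to enoyl-CoA hydratases. Its part in the spiral was not tested, and the study lists it with genes of fatty-acid synthesis. During fasting the liver draws on this spiral for energy and for the acetyl-CoA that becomes ketone bodies.

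The scanner files list Hadh under its older symbol Hadhsc, Hadhb as 4930479F15Rik and Echdc3 as 2310005D12Rik, and the probes were matched to current symbols through the gene numbers in the files. On GRCm38.p6 the genes lie on chromosomes 11 (Acadvl), 1 (Acadl), 3 (Acadm and Hadh), 5 (Acads and Hadhb) and 2 (Echdc3). No other probe on the array named any of these genes.

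The 250 bases before the annotated start of 4 of the genes, from the RefSeq promoter table of GRCm38.p6, are shown because Acadl, Acadm and Hadhb shared a pattern across arrays and Echdc3 correlated negatively with them. Capitals mark the hexamer AGGTCA, the half-site of nuclear receptors such as PPARα, on either strand, which is read as TGACCT where it lies on the opposite strand. The windows are chr1:66863310-66863559 (minus strand) for Acadl, chr3:153944644-153944893 (minus strand) for Acadm, chr5:30155003-30155252 (plus strand) for Hadhb and chr2:6212995-6213244 (minus strand) for Echdc3.
Acadl: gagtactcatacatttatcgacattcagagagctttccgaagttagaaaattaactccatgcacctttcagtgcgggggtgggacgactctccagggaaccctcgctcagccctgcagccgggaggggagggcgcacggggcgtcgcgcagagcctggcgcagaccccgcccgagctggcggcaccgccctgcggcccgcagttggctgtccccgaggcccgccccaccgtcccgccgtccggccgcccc
Acadm: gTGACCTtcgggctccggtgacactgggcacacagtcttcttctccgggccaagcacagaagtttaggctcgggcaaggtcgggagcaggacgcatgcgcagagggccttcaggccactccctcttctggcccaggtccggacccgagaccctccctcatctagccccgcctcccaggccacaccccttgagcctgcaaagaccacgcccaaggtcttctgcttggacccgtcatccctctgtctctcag
Hadhb: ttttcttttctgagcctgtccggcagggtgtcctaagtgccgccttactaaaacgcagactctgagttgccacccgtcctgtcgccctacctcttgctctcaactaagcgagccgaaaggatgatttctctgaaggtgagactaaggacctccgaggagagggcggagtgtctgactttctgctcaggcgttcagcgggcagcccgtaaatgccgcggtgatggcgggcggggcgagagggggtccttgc
Echdc3: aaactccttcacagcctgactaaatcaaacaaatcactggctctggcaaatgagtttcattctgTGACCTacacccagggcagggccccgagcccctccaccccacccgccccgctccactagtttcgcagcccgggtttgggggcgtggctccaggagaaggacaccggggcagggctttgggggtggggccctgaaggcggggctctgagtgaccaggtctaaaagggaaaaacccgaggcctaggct
All 7 genes had an entry in the table, and the full windows searched ran from 250 bases before to 50 bases after the start. The hexamer occurred in 3 of the 7 windows, once each, starting 249 bases before the start of Acadm, 186 before Echdc3 and 87 before Acadvl, whereas 16.3% of the 32851 windows in the table held it. The direct repeat AGGTCANAGGTCA, which contains the hexamer, was in none of the 7 windows and in 0.0396% of all windows. The GC box GGGCGG was found on either strand in the windows of Acadl (4 matches), Hadhb (4), Hadh (4), Acads (1) and Echdc3 (1), and in 35.7% of all windows.

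Signal limits some arrays. Sample signal was in the median 3.50 times the local background on replicate 3 of 24 hours, 4.72 times on replicate 2 of 12 hours, and 5.34 to 10.6 times on the other arrays. The array images were quantified on 3 days: day 1 held replicates 2 and 3 of the fed group and all arrays of 72 hours, day 2 held the other arrays of 12 and 24 hours, and day 3 held replicate 1 of the fed group with the 2 low-signal arrays. All 7 probes were well above background and unsaturated on all 12 arrays, between 4.49 times background (Acads, replicate 3 of 24 hours) and 340.6 times (Echdc3, replicate 1 of 72 hours). The scanner software marked the spot of Acadvl on replicate 2 of 12 hours and that of Acadm on replicate 3 of 72 hours as outliers, and both are missing from the ratios and fits below. All 4 hepatocyte markers with a probe (Alb, Apoa1, Ttr and Ass1) were well above background on all arrays.

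The comparison of fasted with fed arrays asks whether transcripts of the spiral change with the length of the fast. Acadl, Acadm and Hadhb shared a pattern: on the day 2 arrays of 12 and 24 hours they stood at 1.04 to 1.86, above all their fed values, and on both low-signal arrays they lay between -1.08 and -0.12. With all 12 arrays none of the 7 enzymes passed the threshold of a Benjamini-Hochberg adjusted p under 0.05 with at least 1.4-fold change in limma at any time. The threshold was passed by 0.00497% of all probes tested at 12 and at 24 hours, by 0.00996% at 72 hours, and by 0.0% between 72 and 24 hours. At an unadjusted p under 0.01 with at least 1.4-fold change the count was again 0 of 7 at each time, against 0.656%, 0.641% and 0.428% of all probes. At an unadjusted p under 0.05 the count was 1, Echdc3 at 24 hours. Of all probes 3.95%, 3.07% and 1.55% lay under it at 12, 24 and 72 hours. The median log2 fold change of the 7 was 0.26, 0.50 and 0.15 at 12, 24 and 72 hours, respectively, beside -0.01 to 0.00 over all probes tested.

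**Figure D1:**
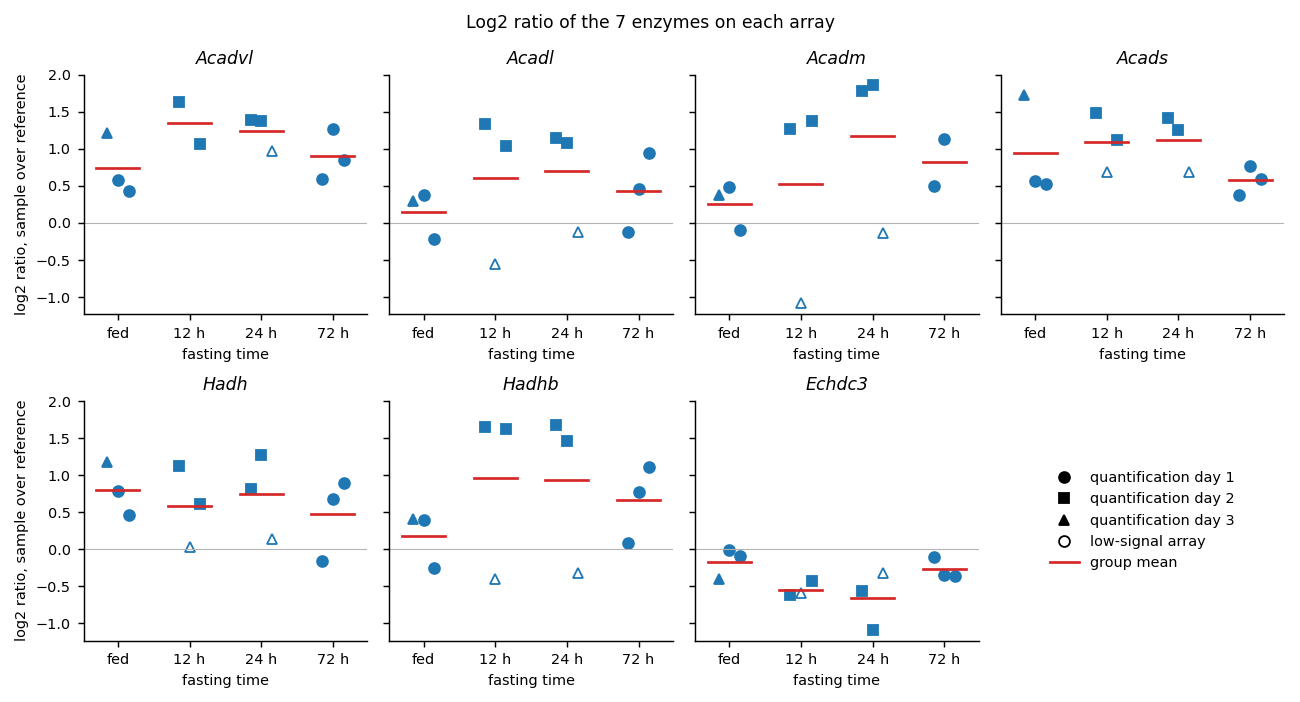
Log2 ratio of sample over reference for each of the 7 enzymes (1 panel each) on each array, by fasting time. Marker shapes give the day of image quantification, open markers the 2 low-signal arrays and red lines group means; on the day 2 squares of 12 and 24 hours Acadl, Acadm and Hadhb lie at 1.04 to 1.86, and their open markers lie below 0.

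Acadvl, which starts the oxidation of very long chains at the inner mitochondrial membrane, had log2 ratios of 1.22, 0.58 and 0.44 on the fed arrays. It stood at 1.63 and 1.06 on the 2 measured arrays of 12 hours, at 1.38, 1.37 and 0.97 at 24 hours and at 0.59, 1.27 and 0.84 at 72 hours. The first fed array overlapped every fasted group, and the other 2 fed arrays lay below all fasted values. The log2 fold changes against fed were 0.60 ± 0.30 (SE), 0.50 ± 0.27 and 0.15 ± 0.27 after 12, 24 and 72 hours, the first a 1.51-fold and the second a 1.41-fold difference (limma adjusted p = 0.95, 1.00 and 1.00).

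Acadl, the long-chain enzyme, gave 0.30, 0.38 and -0.22 in fed liver. At 12 hours its ratios were 1.34, -0.56 and 1.04, at 24 hours 1.14, 1.08 and -0.12, and at 72 hours -0.13, 0.46 and 0.94. The negative values at 12 and 24 hours are those of the low-signal arrays, and the groups overlapped at every time. The fitted log2 fold changes were 0.45, 0.55 and 0.27, respectively, with 95% confidence intervals of -0.65 to 1.56, -0.56 to 1.65 and -0.83 to 1.38 (limma adjusted p = 0.95, 1.00 and 1.00).

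Acadm, the medium-chain enzyme, had the widest spread of the 7. Its fed arrays gave 0.38, 0.49 and -0.09, those of 12 hours 1.26, -1.08 and 1.38, those of 24 hours 1.79, 1.86 and -0.13, and the 2 measured arrays of 72 hours 0.50 and 1.13. The groups overlapped at 12 and 24 hours through a low-signal array each. At 72 hours the lower of the 2 values was 0.5003, beside a highest fed value of 0.4906. With a spot missing, this comparison was not among those counted for overlap over all probes. The standard deviation was 1.39 at 12 hours (n = 3) and 1.13 at 24 hours (n = 3), against 0.31 in the fed group (n = 3). Its fitted changes were 0.26 ± 0.69, 0.91 ± 0.69 (1.88-fold) and 0.56 ± 0.77 in order of time, with limma adjusted p-values of 0.97, 1.00 and 1.00.

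Acads, the short-chain enzyme, stood at 1.73 on the first fed array and at 0.57 and 0.53 on the others. It gave 1.48, 0.69 and 1.12 at 12 hours, 1.41, 1.25 and 0.69 at 24 hours and 0.38, 0.77 and 0.59 at 72 hours. The first fed array was the highest of all 12, so each fasted group overlapped the fed one. The log2 fold change was 0.15 ± 0.33, 0.17 ± 0.33 and -0.36 ± 0.33, respectively, and this enzyme had the lowest value of the 7 between 72 and 24 hours, at -0.53 ± 0.33 (limma adjusted p = 1.00).

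**Figure D2:**
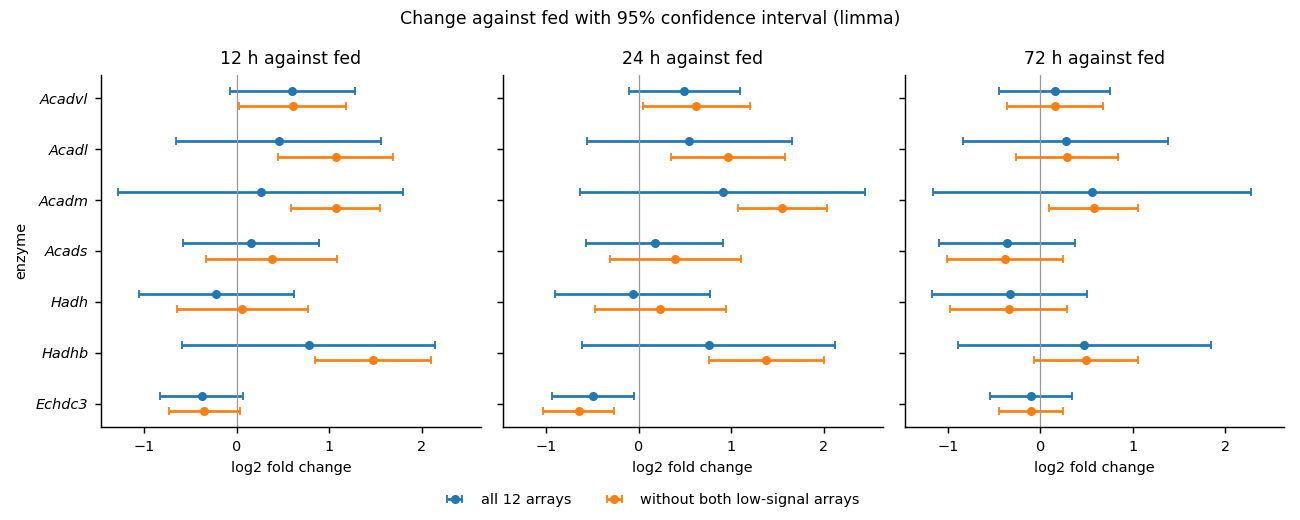
Log2 fold change of each enzyme against fed at 12, 24 and 72 hours from limma, with 95% confidence intervals, over all 12 arrays (blue) and without the 2 low-signal arrays (orange). In blue, 1 interval excludes 0, that of Echdc3 at 24 hours (-0.94 to -0.05). In orange the intervals of Acadvl, Acadl, Acadm and Hadhb lie above 0 at 12 and 24 hours. That of Acadm also lies above 0 at 72 hours (0.10 to 1.05), and that of Echdc3 lies below 0 at 24 hours (-1.03 to -0.27). Intervals are not adjusted for the number of probes, and Acadvl and Acadl did not pass the threshold.

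Hadhb, the thiolase subunit, had a pattern close to that of Acadl. Its ratios were 0.41, 0.40 and -0.26 in fed liver, 1.65, -0.40 and 1.63 at 12 hours, 1.67, 1.46 and -0.32 at 24 hours and 0.09, 0.77 and 1.11 at 72 hours. The 4 values of day 2 lay well above the highest fed value, and both low-signal arrays lay below the lowest one. Its log2 fold changes were 0.78 ± 0.62 (1.71-fold), 0.76 ± 0.62 (1.69-fold) and 0.48 ± 0.62 in order of time, with limma adjusted p-values of 0.95, 1.00 and 1.00. Hadh, the matrix dehydrogenase, had log2 fold changes of -0.22 ± 0.38, -0.07 ± 0.38 and -0.33 ± 0.38. It gave 1.17, 0.78 and 0.46 in fed liver, 1.12, 0.03 and 0.61 at 12 hours, 0.81, 1.28 and 0.14 at 24 hours and -0.15, 0.68 and 0.90 at 72 hours. These groups overlapped throughout, and the difference between Hadh and Hadhb was not tested.

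Echdc3 lay below its fed mean of -0.17 on 8 of the 9 fasted arrays. Its ratios were -0.40, -0.01 and -0.09 in fed liver, -0.62, -0.59 and -0.43 at 12 hours, -0.57, -1.08 and -0.32 at 24 hours and -0.11, -0.34 and -0.36 at 72 hours. The groups did not overlap at 12 hours, the 1 case among the 6 enzymes with 3 values in both groups, where 6.2% of all such probes lay wholly below fed, and they overlapped at 24 and 72 hours. Its fitted values were -0.38 ± 0.20, -0.49 ± 0.20 and -0.10 ± 0.20 in order of time. Its unadjusted p of 0.0337 at 24 hours was the smallest of the 7 over the comparisons with fed, and the limma adjusted p was 1.00. At that time 1.32% of all probes were lower at an unadjusted p under 0.05.

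Without regard to p, 2 of the 7 were at least 1.4-fold higher at 12 hours (Acadvl and Hadhb), where 6.68% of all probes were. At 24 hours 4 of 7 were (Acadvl, Acadl, Acadm and Hadhb), against 3.4% of all probes, and Echdc3 was at least 1.4-fold lower, as were 3.33%. At 72 hours Acadm alone exceeded 1.4-fold, against 3.68%. Between 72 and 24 hours 6 of the 7 had a negative log2 fold change, from -0.53 (Acads, the 1 enzyme at least 1.4-fold lower, as were 4.22% of all probes) to -0.27 (Hadh and Acadl), and Echdc3 had one of 0.39 ± 0.20; the median over all probes tested was -0.01.

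The counts of calls differed when the 2 low-signal arrays, replicate 2 of 12 hours and replicate 3 of 24 hours, were left out. The arrays of 12 and 24 hours that remained were all of day 2, which held no fed array. Fasting and quantification day cannot be told apart in these comparisons with fed. Hadhb was then 2.77-fold and Acadm 2.10-fold higher at 12 hours (limma adjusted p = 0.0295 and 0.0374), while 1.81% of all probes passed as higher. At 24 hours Acadm was 2.93-fold and Hadhb 2.61-fold higher (limma adjusted p = 0.00701 and 0.0190), with 5.55% of probes passing as higher. Echdc3 was lower by 0.65 on the log2 scale (limma adjusted p = 0.0417), with 3.86% passing as lower. Acadl then stood at 2.10- and 1.95-fold with adjusted p-values of 0.0672 and 0.0521 in limma. At 72 hours against fed and against 24 hours none of the 7 passed, where 0.826% and 1.32% of all probes did. With array quality weights instead, which give less weight to arrays that fit poorly, Acadvl, Acadl, Acadm, Acads and Hadhb passed as higher and Echdc3 as lower at both 12 and 24 hours, and none at 72 hours, where 4.04% of all probes passed. Under those weights 5.41% and 5.85% of all probes passed as higher and 4.11% and 4.63% as lower at the earlier times. Acads passed as lower at 72 against 24 hours, with 2.1% of all probes. The weighted fit did not enter the day either. Fasting and quantification day therefore cannot be told apart in its comparisons of 12 and 24 hours with fed.

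Values also differed by the day of quantification. With the day as a block none of the 7 had a positive log2 fold change at 12 or 24 hours, and Acads at both times and Acadm at 12 hours passed as lower (-1.05, -1.03 and -1.31), where 11.2% of all probes at 12 hours and 4.72% at 24 hours passed as lower. Between 72 and 24 hours Acads passed as higher (1.06), with 4.46% of all probes, and at 72 hours against fed none of the 7 passed, with 0.0199%. In that fit the comparison of 12 and 24 hours with fed rests on day 3, where it sets the 2 low-signal arrays against the first fed array. Within day 3, the 12 hour array differed from the fed array by -0.86 for Acadl, -1.46 for Acadm, -1.03 for Acads, -1.14 for Hadh, -0.80 for Hadhb and -0.19 for Echdc3. The 24 hour array differed from it by -0.25 for Acadvl, -0.43 for Acadl, -0.51 for Acadm, -1.04 for Acads, -1.03 for Hadh, -0.72 for Hadhb and 0.07 for Echdc3, all single arrays without a test. Day 2 held no fed array. Within day 1, the 3 arrays of 72 hours against 2 fed arrays gave 0.39 for Acadvl, 0.35 for Acadl, 0.62 for Acadm, 0.03 for Acads, -0.15 for Hadh, 0.59 for Hadhb and -0.22 for Echdc3, and none passed in limma, with 0.0469% of all probes passing.

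The reference channel carried the same fed RNA on every array, and for some of the 7 its signal moved with the day. For Hadhb its quantile-normalized log2 signal was 9.59 to 10.4 on day 1, 10.3 to 11.4 on day 2 and 11.3 to 11.7 on day 3. Acadm had 9.74 to 10.3, 10.5 to 11.1 and 11.2 to 11.7, and Acadl 9.42 to 10.1, 9.79 to 11.02 and 10.9 to 11.2, so that the means of the 3 days stood in the same order for all 3 probes. Acads ran the other way between days 1 and 3, at 8.67 to 9.42 and 8.26 to 8.49, and Acadvl and Echdc3 spanned less, 0.91 each over all arrays. For Acadl, Acadm and Hadhb the sample channel of the low-signal arrays stood at 10.4 to 11.4, within or above each probe's range on day 1, while their reference channel stood at 10.9 to 11.7, above each probe's day 1 range. The part of this in the ratios was not tested.

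**Figure D3:**
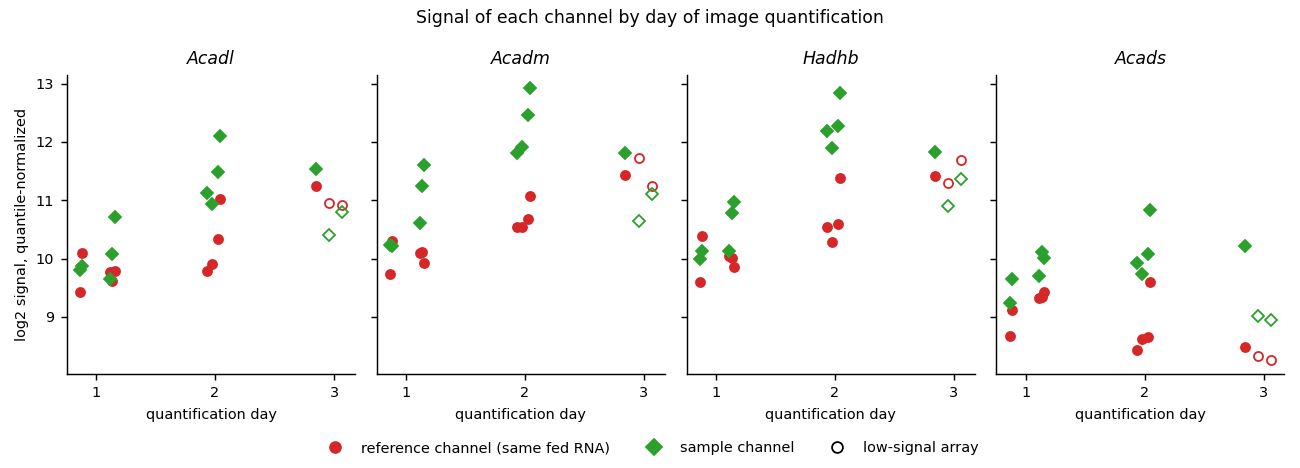
Quantile-normalized log2 signal of Acadl, Acadm, Hadhb and Acads in the reference channel (circles) and the sample channel (diamonds) by day of image quantification, with 1 pair of markers per array and open markers for the low-signal arrays. The reference signal of Hadhb runs from 9.59 on day 1 to 11.7 on day 3, whereas that of Acads is lower on day 3 than on day 1.

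Whether the chain-length enzymes differ in their response was asked with the difference of 2 log2 ratios on the same array, which compares changes and not levels. Of the 6 pairs of acyl-CoA dehydrogenases none passed after Benjamini-Hochberg adjustment. Acadvl minus Acads was -0.20 ± 0.27 (SD, n = 3) on fed arrays and 0.18 ± 0.18 (SD, n = 8) on fasted ones, a difference of 0.38 (two-sided exact permutation p = 0.0364, adjusted 0.218). Relative to fed, that pair stood at 0.24, 0.32 and 0.52 at 12, 24 and 72 hours. Acadm minus Acads changed by 0.55, from -0.68 ± 0.64 (n = 3) to -0.14 ± 0.80 (n = 8, exact permutation p = 0.315, adjusted 0.473), and by 0.11, 0.74 and 0.92 at the successive times. Acadl minus Acads changed by 0.44 (exact permutation p = 0.218, adjusted 0.473) over 9 fasted arrays. These 3 values depended on the first fed array, where Acads was highest: without it they were 0.21, 0.21 and 0.12, in the same order, and the exact permutation p of Acadvl minus Acads was 0.178 (adjusted 0.873). With the sample channel alone their changes at 72 hours were -0.22, -0.02 and -0.48.

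The permutations exchanged arrays across quantification days, which divide the groups. Within day 1, the arrays of 72 hours differed from 2 fed arrays by 0.36 for Acadvl minus Acads, 0.59 for Acadm minus Acads and 0.32 for Acadl minus Acads, none of which passed (exact permutation p = 0.2, 0.333 and 0.6, adjusted 0.667, 0.667 and 0.8), with too few arrays for a p under 0.05. Within day 3, the 24 hour array differed from the fed array by 0.79, 0.53 and 0.61 for these pairs, and the 12 hour array by -0.43 for Acadm minus Acads and 0.17 for Acadl minus Acads, without a test.

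The 3 pairs among the longer-chain enzymes had smaller or negative changes. Acadvl minus Acadl changed by -0.17, Acadvl minus Acadm by -0.42 and Acadl minus Acadm by -0.20, with exact permutation p-values of 0.545, 0.283 and 0.521 (adjusted 0.545, 0.473 and 0.545). Acadl minus Acadm was close to constant on fed arrays, at -0.11 ± 0.03 (SD, n = 3), and stood at 0.07, 0.53 and -0.34 at 12 hours, at -0.64, -0.78 and 0.01 at 24 hours, and at -0.63 and -0.67 on the 2 arrays of 72 hours with both values, changes of 0.19, -0.36 and -0.54 from fed. Without the low-signal arrays Acadm minus Acads changed by 0.94 (exact permutation p = 0.0476, adjusted 0.125), and again no pair passed. At 3 against 3 arrays the exact test cannot go below 0.1, so the single times were not tested.

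**Figure D4:**
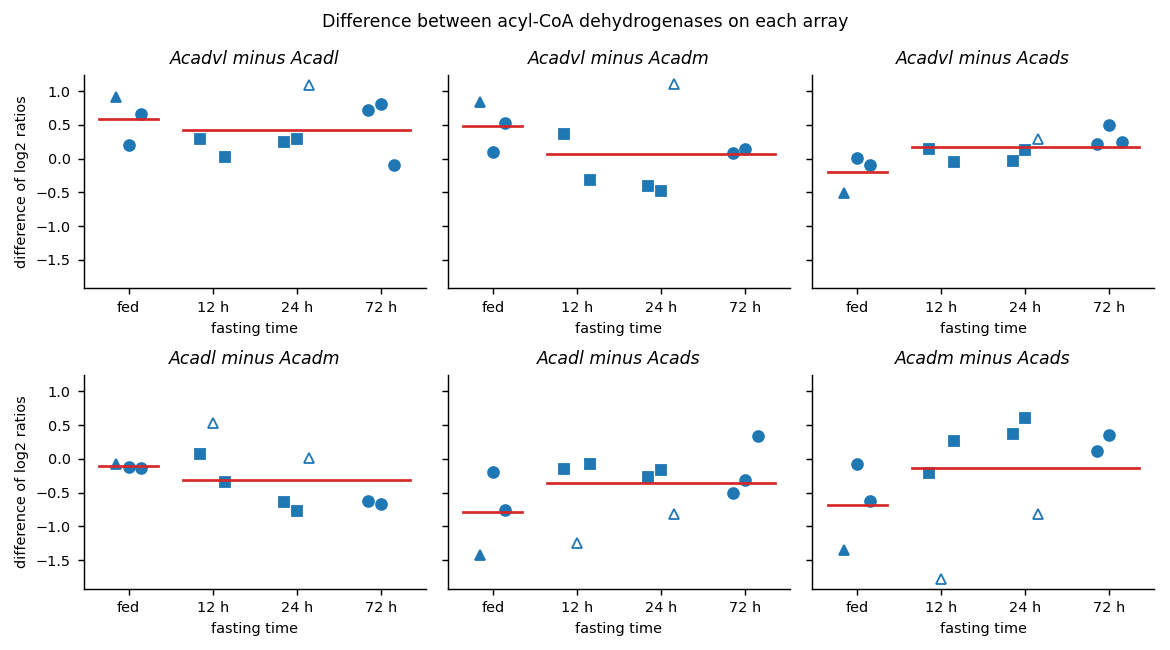
Difference between the log2 ratios of 2 acyl-CoA dehydrogenases on the same array, for the 6 pairs, by fasting time. Red lines are the means of the fed and of all fasted arrays, circles, squares and triangles stand for quantification days 1, 2 and 3, and open markers for the low-signal arrays; the mean of Acadvl minus Acads moves from -0.20 to 0.18, and the open markers lie apart from the squares in the pairs with Acadm.

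Across arrays, the ratios of Acadl and Hadhb went together (Pearson r = 0.98 over 12 arrays, and 0.98 over the 10 without the low-signal arrays), as did those of Acadm with Hadhb (0.92 over 11) and with Acadl (0.92 over 11). Acads was less close to them, at 0.60 with Acadl and with Hadhb over 12 arrays and 0.53 with Acadm over 11. Echdc3 correlated negatively with the other 6, from -0.80 (Acadvl) to -0.44 (Acadm). Without the low-signal arrays its r with Acadm was -0.82 over 9 arrays, then the strongest of the 6, and with Acadl it went from -0.49 over 12 arrays to -0.74 over 10. The arrays share days, reference and signal differences, so these are descriptions without a test. An r of 0.9 or more with Acadm was reached by 5.6% of the 8880 probes well above background and unmarked on all arrays. With Acadl and with Hadhb it was reached by 2.03% each, and with Echdc3 by 0.608%. These shares do not cover negative r.

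The named probes most like Acadm over its 11 arrays were Aldoa (0.99), an aldolase of glycolysis, Osbpl1a (0.98), an oxysterol-binding protein, Iqgap2 (0.98), a scaffold protein, Ivd (0.98), the isovaleryl-CoA dehydrogenase of leucine breakdown and a relative of the acyl-CoA dehydrogenases, and Eri3 (0.98), an exonuclease. Without the low-signal arrays their r was 0.97, 0.98, 0.97, 0.97 and 0.96 over 9 arrays, and the 5 named probes closest to Acadm were then different ones, Rnf103, Clca3a1, Sec23a, Man2a1 and Slc25a3 (0.98 to 0.99). Those most like Echdc3 over 12 arrays were Foxn4 (0.98), Utf1 (0.97), Tcl1b5 (0.97), Ucp2 (0.96) and Coro1a (0.96), and their r over 10 arrays was 0.97 to 0.99. On those 10 arrays Foxn4 and Utf1 were again among the closest 5, with Samd11, Haus6 and Fitm2 in place of the others. Foxn4 and Utf1 are transcription regulators, Ucp2 is a mitochondrial carrier of the inner membrane and Coro1a an actin-binding protein of leukocytes. In the macrophage and leukocyte list, 6 of 9 genes had a probe, and the summed normalized sample signal of their 7 probes ranged from 8646 to 11260 on fed arrays, 4545 to 7899 at 12 hours, 6567 to 8799 at 24 hours and 8354 to 9008 at 72 hours, so that the arrays of 12 hours lay below all fed arrays. The log2 fold changes of these probes at 12 hours differed, and none passed in limma. They were -1.11 for Cd74, -0.71 and -0.92 for Lyz2, -0.51 for C1qb, -0.26 for Csf1r, -0.15 for C1qa and 0.12 for Ptprc. On the low-signal array of 12 hours the ratios of Cd74, Lyz2 and C1qb lay between -2.51 and -1.44, against -0.75 to 0.41 on the other arrays of 12 hours. The defining markers Csf1r, C1qa and Ptprc were well above background on all arrays, and the part of such cells in the Echdc3 values was not tested.

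The other genes of the pathway were read from a list of 61, of which 45 had a probe, 50 probes in all. None of the 50 passed in any comparison in limma, and 31, 31 and 24 had a log2 fold change above 0 at 12, 24 and 72 hours. Their median was 0.27, 0.11 and -0.01. At an unadjusted p under 0.05 the numbers were 5, 1 and 2 of 50, where 3.95%, 3.07% and 1.55% of all probes tested lay under it. The probe nearest to the threshold, chosen after its values were seen, was that of Acot1, a thioesterase that hydrolyses acyl-CoA, with log2 fold changes of 1.93 at 12 hours (limma adjusted p = 0.0569), 1.68 at 24 hours (0.170) and 0.52 at 72 hours.

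Among enzymes of the inner spiral steps and their helpers (9 probes), the median log2 fold change was 0.37, 0.24 and -0.03 at 12, 24 and 72 hours. Hadha, the partner subunit of Hadhb, stood at 0.37, 0.19 and -0.13, and Eci2, an isomerase for unsaturated chains, at 0.61, 0.29 and -0.04. The electron transfer flavoprotein, which takes electrons from all acyl-CoA dehydrogenases, had values of -0.23, -0.01 and 0.23 for Etfa and 0.09, -0.02 and -0.20 for Etfb. None of these passed.

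The 11 probes for activation, the carnitine shuttle and thioesterases had a median of 0.47, 0.08 and -0.06. Slc27a2, a fatty-acid transport protein, had 0.52, 0.39 and 0.78, and Acsl1, the main acyl-CoA synthetase of liver, 1.24, 0.65 and 0.16. For peroxisomal oxidation (6 probes, median 0.58, 0.39 and -0.11) the thiolase Acaa1a had 0.57, 0.58 and 0.08.

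The branched-chain enzymes had medians of 0.15, 0.07 and 0.08 over 9 probes, with Hibadh, of valine breakdown, at -0.06, -0.35 and -0.08 and Acadsb, the dehydrogenase for short branched chains, at 0.02, -0.05 and -0.03. Among transcription factors and coregulators (9 probes, median 0.00, -0.11 and -0.01), the coactivator Ppargc1a had -0.30, -0.15 and -0.15 and the deacetylase Sirt3 -0.70, -0.14 and 0.30. The relatives of Echdc3 had 0.14, 0.42 and -0.01 (Echdc2) and -0.51, -0.46 and -0.52 (Echdc1). No value in these groups passed the test.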

How the data were processed

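The deposited scanner files hold, per the file headers, intensities of 12 arrays quantified by the authors with Agilent's Feature Extraction software: median pixel brightness of each spot and its local background, not normalized. They also hold log10 ratios of reference over sample after the software's own background subtraction and dye normalization; the deposited value table is these log10 ratios with the sign turned (largest difference 4.98e-08 over 257352 values). Of 21446 spots, 1075 control and 91 retired spots were left out. Median signals were corrected with normexp (offset 50), quantile-normalized across 24 channels and turned into log2 ratios (sample over reference), outlier-marked spots set to missing. A probe entered the test if its sample signal was well above background throughout at least 1 group; tests ran in limma 3.58.1 (R 4.3.3) over all 4 groups, with Benjamini-Hochberg adjustment over all probes tested; permutation tests used SciPy 1.17.1. Calls needed an adjusted p under 0.05 and at least 1.4-fold. The limma script was tested on simulated data with the spread of these probes and known changes at 24 hours. It recovered 3 of 50 probes changed 1.5-fold, 16 of 50 changed 2-fold, 39 of 50 changed 4-fold and 41 of 50 changed 8-fold. Most changes of 2-fold or less were thus missed, so the absence of a call is not evidence of no change.

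Groups came from titles. The source names give 3 different pairs of livers per group, although the labelling notes of the 24 and 72 hour arrays all name the first pair. The p-values measure the spread between arrays of a group, in which pool, signal and quantification day cannot be told apart. Array number and signal limit precision. The 7 enzymes and the lists were chosen with earlier results of these data known. Named from the list were members past the threshold, otherwise the 2 brightest in fed liver per part, of which some are not reported here; likeness used the 5 named probes of highest r. Gene names and promoters came from RefSeq tables (GRCm38.p6), which named 12219 of 20280 probes. Marker lists covered hepatocyte (4 of 10 genes with a probe), macrophage and leukocyte (6 of 9), endothelial and stellate (6 of 9), cholangiocyte (4 of 4), adipocyte and muscle (2 of 5) and erythroid cells, of which none had a matched probe. The summed signal of the endothelial and stellate list ranged from 2015 to 2873 over all arrays, that of the cholangiocyte list from 1509 to 2009 and that of the adipocyte and muscle list from 964.8 to 3527. The study's quantitative PCR was not used here.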

Additional observations from a re-analysis of the deposited data

How the results depend on the processing

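With loess within arrays, plain background subtraction, outlier-marked spots kept, no filter on dim probes or only the 2 groups compared, none of the 7 enzymes passed at any time and no direction changed, and no dehydrogenase pair passed under any alternative run for the pairs. The replicate block, entered although the numbers mark different animals (correlations of same-numbered deviations from -0.61 to 0.60 over 18 pairs), gave 0 of the 7 at each time. No other probe named the 7 genes, so that alternative was not run. The comparisons within quantification day 1 were chosen after seeing the data, and there Acadvl minus Acadl turned from -0.17 to 0.044.

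Array weights gave 6, 6 and 0 of the 7 at 12, 24 and 72 hours and 1 between 72 and 24 hours, the day block 2, 1, 0 and 1, and the fit without both low-signal arrays 2, 3, 0 and 0. For the 50 listed probes, from a count of 0 each, these gave 18, 16, 5 and 8 (weights), 14, 7, 0 and 4 (day block) and 7, 9, 1 and 4 (without both arrays). Of all probes tested 9.52%, 10.5%, 4.04% and 4.23% passed with weights, 22.5%, 11.6%, 0.0199% and 10.6% with the day block, and 2.79%, 9.41%, 0.826% and 1.32% without both arrays. Higher among the listed calls were 18, 14, 3 and 1 with weights, 4, 2, 0 and 3 with the day block, and 7, 9, 1 and 0 without both arrays, and the others were lower. Keeping outlier-marked spots gave 1 at 12 and 1 at 24 hours, and fitting only the 2 groups gave 1 at 72 hours. Leaving out single arrays kept the 7 at 0 and gave 0 to 1 listed probe at 12 and at 24 hours.

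With the day block the log2 fold changes turned to -0.28 (Acadvl), -0.69 (Acadl), -1.31 (Acadm), -1.05 (Acads) and -0.75 (Hadhb) at 12 hours. At 24 hours they turned to -0.25, -0.60, -0.66, -1.03 and -0.77 in the same order. That of Acads at 72 hours turned to 0.031, also within day 1 alone (0.031). Those between 72 and 24 hours turned to 0.64, 0.94, 1.28, 1.06, 0.86 (Hadh), 1.36 (Hadhb) and -0.10 (Echdc3).

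The sample channel alone turned Acads at 12 hours (-0.14) and 72 hours (0.23), Hadh at 24 hours (0.40), and Acadl (-0.25), Hadhb (-0.02) and Echdc3 (0.23) at 72 hours. Array weights turned Hadh at 12 and 24 hours (0.15 and 0.11) and Acads at 72 hours (0.0065), the scanner's log ratio Echdc3 at 72 hours (0.013), and leaving out both low-signal arrays Hadh at 12 and 24 hours (0.060 and 0.23). The causes were not tested.

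Leaving out 1 array at a time changed a sign for Acadm (-0.17 to 1.07), Acads (-0.054 to 0.55) and Hadh (-0.49 to 0.059) at 12 hours. It did so for Acads (-0.032 to 0.57) and Hadh (-0.33 to 0.23) at 24 hours, and for Acadvl (-0.032 to 0.39) and Acads (-0.56 to 0.031) at 72 hours. Between 72 and 24 hours it did so for Hadh (-0.57 to 0.045) and Hadhb (-0.90 to 0.079). Other values moved without a change of sign. At 12 hours Acadvl ranged from 0.32 to 0.88, Acadl from 0.087 to 1.06 and Hadhb from 0.43 to 1.47, and at 24 hours Acadvl from 0.34 to 0.725, Acadl from 0.33 to 0.96, Acadm from 0.56 to 1.55 and Hadhb from 0.395 to 1.38. The highest values of Acadl, Acadm and Hadhb came without replicate 2 of 12 hours at 12 hours and without replicate 3 of 24 hours at 24 hours, and the highest of Acads at each time came without fed replicate 1. At 72 hours Acadl ranged from 0.015 to 0.54, Acadm from 0.24 to 0.87, Hadh from -0.54 to -0.019 and Hadhb from 0.24 to 0.76. Echdc3 ranged from -0.49 to -0.30, from -0.65 to -0.28 and from -0.22 to -0.026 at the 3 times. Between 72 and 24 hours Acadvl ranged from -0.53 to -0.19, Acadl from -0.68 to -0.0036, Acadm from -0.99 to -0.0020, Acads from -0.76 to -0.39 and Echdc3 from 0.18 to 0.55.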
